A study of Mus musculus with 15 samples.

Results

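The second step of a MYC inactivation time course was taken from 2 h to 4 h after doxycycline addition. It rests on 6 of the 15 libraries of the series, 3 labelled MYC off 4 h and 3 labelled MYC off 2 h, which were chosen by their labels alone. The 3 libraries labelled MYC on 0 h entered the same fit, so that the second step of each gene could be set beside its first step, from 0 h to 2 h. The cells came from acute lymphoblastic leukemias of the T lineage (T-ALL), taken from tumors of EμSRα-tTA/tet-O-MYC mice of the FVB/N strain and grown in culture. Every group, 0 h included, carried both transgenes. The first encodes the tetracycline transactivator under the Eμ enhancer and SRα promoter, which restrict it to blood-forming cells, and the other is a human MYC gene under the tet operator. Doxycycline releases the transactivator and so switches the human MYC gene off. The 0 h cells were mock treated and kept MYC on, and the 2 h and 4 h cells had spent 2 and 4 hours in doxycycline. Doxycycline and loss of MYC cannot be told apart in this design, since no library came from treated cells without the transgenes. Nothing in the labels tells if replicates were grown as separate cultures, and all p-values therefore reflect the spread among the libraries alone, which may be technical.

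MYC binds DNA as a dimer with MAX, preferring the letters CACGTG, known as an E-box. In dividing cells it is best known for raising the genes that build ribosomes, import amino acids, and make nucleotides, polyamines and glycolytic enzymes. T-ALL is a cancer of immature T cells, and many of its tumors depend on MYC. MYC also belongs to a network of related factors, among them MNT, MGA and the MXD proteins, which compete for MAX.

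Polyadenylated RNA was sequenced and counted per gene. The 9 libraries at 0, 2 and 4 h held 26441868 to 27102318 counts, so that 3 counts corresponded to 0.111 to 0.113 CPM, the unit of counts scaled to library size used throughout. Of 12 genes that mark T cells, 10 lay at 94.9 CPM or more in each of these libraries, with Cd3e at 232 to 266 CPM, Cd4 at 704 to 812 CPM and Trbc2 at 1410 to 1980 CPM. Cd2 was low, at 2.15 to 4.0 CPM, and Trbc1, the other receptor beta constant gene, was at 0.113 to 0.666 CPM. The B cell genes Cd79b and Pax5 and the myeloid genes Lyz2 and Adgre1 were listed at 0 in all 9 libraries. Ighm, an immunoglobulin gene, was present at 73.5 to 106 CPM, and the myeloid genes Csf1r and Itgam lay at 4.19 to 8.55 and 2.22 to 4.7 CPM. Replicate 3 at 4 h stood apart from its group. Its counts differed from those of replicates 1 and 2 with chi-square values of 16.2 and 12.8 per degree of freedom, against 2.94 to 9.54 for the other pairs of replicates at 0, 2 and 4 h. It also gave 13.4% of its counts to cytosolic ribosomal protein genes, against 11.9% in both other 4 h libraries and 10.2 to 10.7% at 0 and 2 h.

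The human MYC transcript, which checks the labels, was at 2006, 1944 and 1904 CPM in the 0 h libraries, 23.3, 26.2 and 22.6 CPM at 2 h and 7.54, 8.66 and 10.3 CPM at 4 h. Most of the transcript was thus already gone at 2 h, and the 3 libraries at 4 h lay below all 3 at 2 h. The second step took it down further, with a log2 fold change of -1.45 ± 0.090 (SE; edgeR adjusted p = 1.1e-10). The mouse Myc gene did not pass the filter on low counts and was not tested.

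Of the 13703 genes tested, 2005 were higher (14.6%) and 3441 were lower (25.1%) at 4 h than at 2 h at an adjusted p under 0.01 in edgeR's quasi-likelihood test. In the first step 1801 genes were higher (13.1%) and 2233 were lower (16.3%) by the same rule. Falls in the second step were also the larger changes, with 521 of the lower genes past 2-fold but 88 of the higher genes. The median log2 fold change was 0.39 among the higher genes and -0.49 among the lower genes. The libraries of the 2 time points did not overlap for 7651 genes (55.8%). The genes named below as the largest changes, overall or of a class, were taken from these, so that their separate libraries are a description and no further evidence. The balance between rises and falls depends on how libraries are scaled. Over all genes tested the median log2 fold change of the second step was -0.039 in the main fit and 0.065 with upper-quartile factors, a shift of 0.103. Rises made up 36.8% of the calls in the main fit, 46.2% when libraries were scaled by their totals (2497 higher and 2912 lower), 44.2% with DESeq2-type size factors (2414 and 3048) and 56.1% with upper-quartile factors (3179 and 2484). Fewer cells of a kind and less RNA per cell cannot be told apart in such bulk libraries, which measure each gene only relative to the others.

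Each gene called in the second step was placed in a class by its first step. Genes that moved first in this interval were the most frequent, with 1498 first rising (27.5% of the genes called) and 1648 first falling (30.3%). A further 1416 genes continued to fall (26.0%) and 333 continued to rise (6.11%). Genes that turned back were fewer, with 377 that had risen by 2 h and fell by 4 h (6.92%) and 174 that had fallen by 2 h and rose by 4 h (3.2%). Both steps use the same 2 h libraries, with opposite sign, so spread in those libraries adds to the classes that turn back. The second step minus the first was also tested, and was above 0 for 777 genes (5.67%) and below 0 for 1812 (13.2%). The 2 h libraries weigh most in that contrast, so it does not remove their spread. All 377 and 174 genes of the classes that turned back passed it, which is no further evidence that they turned back. Against 0 h, 3469 genes were higher at 4 h (25.3%) and 3985 were lower (29.1%).

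**Figure D1:**
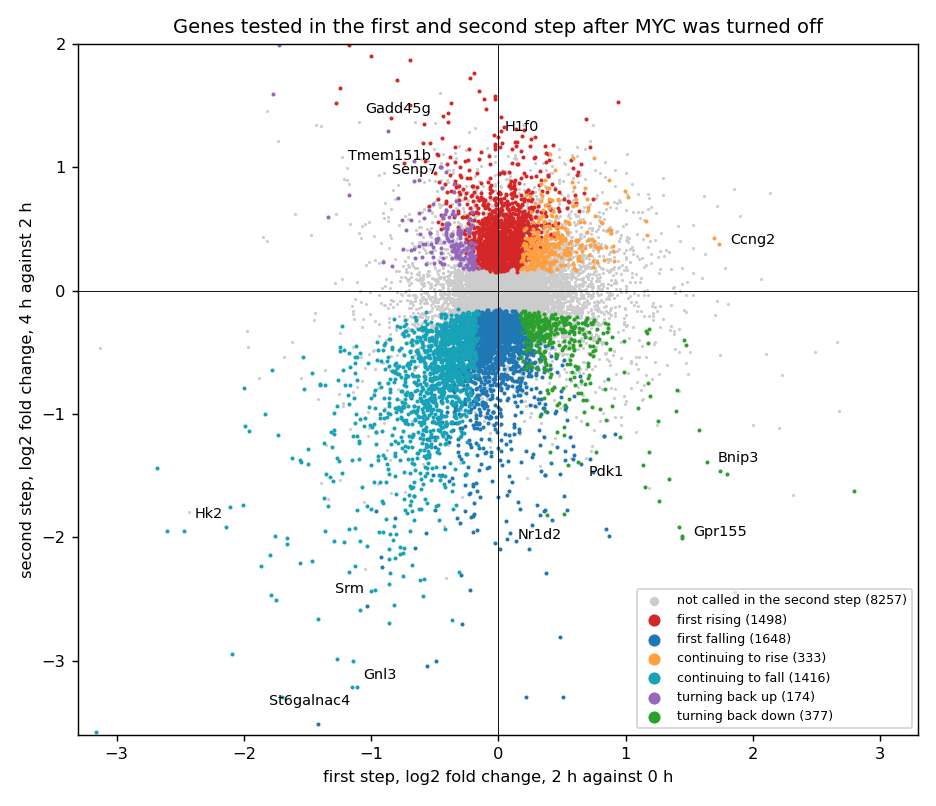
Log2 fold change of each tested gene in the second step (4 h against 2 h, vertical axis) against the first step (2 h against 0 h, horizontal axis). Points are genes, coloured by class, and 5 genes lie outside the axes. Genes that continued to fall sit in the lower left and those that turned back sit in the upper left and lower right.

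The share of promoters that held the E-box letters was set beside the classes. RefSeq windows from 250 bases before to 50 bases after the start were found for 8577 of the 10782 protein-coding genes tested, and both strands were searched for several short motifs. These were the E-box CACGTG, the cyclic AMP response letters TGACGTCA, the NF-Y letters CCAAT and the GC box GGGCGG. The forkhead letters TGTTTAC, the cell cycle homology letters TTTGAA and the shorter letters ACGTG, which every CACGTG holds, were searched as well. The E-box CACGTG lay in 12.1% of all these genes' promoters, in 15.9% of those first falling and in 19.9% of those that continued to fall. The share was 8.82% among first rising genes, 5.91% among those that continued to rise, 7.44% among those turning back up and 10.6% among those turning back down. ACGTG outside CACGTG was in 20.9% of all and in 27.1% of the promoters of genes turning back down. CCAAT lay in 43.6% of all promoters and in 57.1% of those of genes that continued to rise. The cyclic AMP, cell cycle homology and forkhead letters were in 3.78%, 14% and 3.04% of all promoters, and in 7.09%, 20.5% and 3.94% of those that continued to rise. GGGCGG, the most common letters searched, was in 70.2% of all and in 63.8 to 78.9% of the promoters of the 6 classes. A gene counted when any of its windows held the letters, and the mean number of windows per gene ran from 1.24 to 1.49 over the classes. These shares are descriptions without a test. A match is not a binding site, and the base content of the classes was not the same (median GC 59.3% in first rising and 62.7% in first falling promoters).

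Promoter stretches upstream of the start are shown for a few genes of the falling and the turning-back classes. The searched letters are in capitals and positions are counted from the RefSeq start. All were picked because the stretch holds these letters, so they do not represent the promoters of their classes. The naming rule looked for CACGTG among the 8 largest changes of each falling class. It gave Tef alone, and no gene that continued to fall. The other genes were chosen after their values were seen. Tef encodes a transcription factor of the circadian output and first fell in this interval, with CACGTG from position -138 (GRCm38.p6, chr15:81811236-81811321, plus strand).
Tef: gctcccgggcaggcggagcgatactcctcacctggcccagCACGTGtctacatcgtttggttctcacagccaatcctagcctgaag
Abcc4 encodes an efflux pump of organic anions and also first fell, with CACGTG from position -205 (chr14:118706379-118706464, minus strand).
Abcc4: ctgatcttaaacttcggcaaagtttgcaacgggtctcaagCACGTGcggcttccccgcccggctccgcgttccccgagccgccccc
Nmd3 encodes the adaptor that exports the large ribosomal subunit and continued to fall, with CACGTG from position -114 (chr3:69721911-69721976, plus strand). It ranked only 59 by size of fall among the ribosome assembly genes considered, at -0.66 to -0.51 on the log2 scale over 18 alternatives.
Nmd3: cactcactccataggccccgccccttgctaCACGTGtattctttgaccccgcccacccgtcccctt
Aldoa encodes aldolase of glycolysis and turned back down, with CACGT, which reads ACGTG on the other strand, from position -126 (chr7:126799336-126799420, minus strand).
Aldoa: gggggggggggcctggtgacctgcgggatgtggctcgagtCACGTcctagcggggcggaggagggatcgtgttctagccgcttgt
Pgk1 encodes phosphoglycerate kinase and turned back down, with 2 matches to ACGTG on opposite strands, the first from position -150 (chrX:106186910-106186994, plus strand).
Pgk1: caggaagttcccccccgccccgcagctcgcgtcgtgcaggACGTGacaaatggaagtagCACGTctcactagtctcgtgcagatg

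First falling genes were by rule those without a call in the first step, so their small first steps follow from that rule. The median of the 1648 genes was -0.042 in the first step and -0.44 in the second. In the first step 1256 of them had an adjusted p of 0.05 or more, and 1276 moved by less than 0.2 on the log2 scale. The second fall was larger than the first by its own test for 651 genes, and for 112 of these it also passed 2-fold. At 4 h, 1380 of the 1648 genes were below their 0 h level. Nr1d2, a nuclear receptor that represses genes of the circadian clock, was at 57.8, 62.2 and 68.5 CPM at 0 h, 60.7, 70.2 and 66.3 CPM at 2 h and 15.97, 17.03 and 15.9 CPM at 4 h. The 0 h and 2 h libraries overlapped, and all 4 h libraries lay far below both. Its second step was -2.01 ± 0.075 on the log2 scale (adjusted p = 6.93e-14), which differed from its first step of 0.066 (adjusted p = 4.47e-10). Tef, whose promoter is shown above, went from 20, 20.9 and 15.5 CPM at 0 h and 15.8, 17.2 and 15.6 CPM at 2 h to 5.06, 4.55 and 3.96 CPM at 4 h (log2 fold change -1.84 ± 0.12, adjusted p = 2.22e-10). The 4 h libraries did not overlap the others, and without 0 h replicate 3, the lowest of its group, Tef did not keep this class.

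Txnrd3, a thioredoxin reductase, was at 13.4, 13.03 and 11.99 CPM at 0 h, 12.7, 12.8 and 12.3 CPM at 2 h and 3.41, 3.02 and 2.67 CPM at 4 h. All 4 h libraries were below all others, and the second step was -2.05 ± 0.11 (adjusted p = 7.8e-12). Its mean went on to 0.321 CPM at 8 h and 0.281 CPM at 24 h, whereas Nr1d2 was at 17.4 and 37.5 CPM at those times. The other genes named in this class were Ldlrad3, Mpp3, a membrane scaffold protein, Vav2, an exchange factor for small GTPases, Lgals3bp, a secreted galectin ligand, and Spire1, an actin nucleator. Their second steps were -1.94, -1.96, -1.81, -1.78 and -2.30 on the log2 scale. Spire1 had already drifted by -0.30 in the first step and kept this class in 11 of 18 alternatives. Abcc4 went from 26.4, 26.6 and 25.1 CPM at 2 h to 10.1, 7.60 and 7.56 CPM at 4 h without overlap (-1.63 ± 0.10, adjusted p = 5.49e-11).

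Cell cycle entry and transcription machinery were among the lists with first falling members. Of 21 genes for G1 cyclins and E2F factors, 3 were higher (14.3%) and 10 lower (47.6%) in the second step, beside 14.6% and 25.1% over all genes, with a median of -0.24 beside -0.039 over all genes. E2f3, an activator of S phase genes, moved from 54.2, 50.7 and 50.4 CPM at 2 h to 36.8, 31.7 and 30.3 CPM at 4 h (-0.65 ± 0.068, adjusted p = 1.8e-07). Cdc25a, the phosphatase that opens the gate to S phase, moved from 103, 95.8 and 98.95 to 67.8, 57.6 and 58.1 CPM (-0.70 ± 0.060, adjusted p = 1.24e-08). Both sets of libraries were separate. Cdc25a had been at 113.7, 113.5 and 109.6 CPM at 0 h, above all 2 h libraries, and was first falling in 12 of 18 alternatives. Ccnd2 and Cdk6, the cyclin D2 and kinase pair, had fallen in the first step already and fell again, with log2 fold changes of -1.24 and -1.11. Of 20 regulators of chromatin and transcription with ties to cancer, 1 was higher and 11 were lower, with a median of -0.25. Cdk9, the kinase that releases paused RNA polymerase II, first fell (-0.50 ± 0.047, adjusted p = 3.7e-08), and Kat2a, a histone acetyltransferase recruited by MYC, continued to fall (-1.44 ± 0.083, adjusted p = 3.47e-11).

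First rising genes gained less than the falling genes lost. Their medians were 0.013 in the first step and 0.40 in the second. In the first step 1301 of the 1498 had an adjusted p of 0.05 or more, and 1243 moved by less than 0.2. These first-step values again follow from the rule for the class. The second step was larger by its own test for 405 genes, 15 of which also passed 2-fold, and 1274 of the 1498 were above their 0 h level at 4 h. H1f0, the linker histone H1.0 that accumulates in cells that stop dividing, was at 43.9, 39.6 and 43.2 CPM at 0 h, 39.5, 40.8 and 43.2 CPM at 2 h and 84.6, 103 and 109.8 CPM at 4 h. All 4 h libraries were above every earlier library. Its second step was 1.27 ± 0.078 (adjusted p = 9.05e-11), and its means at 8 and 24 h were 216 and 558 CPM. Gadd45g, a stress-induced brake on the cell cycle, moved from 10.3, 8.54 and 10.6 CPM at 0 h and 8.77, 6.04 and 7.499 CPM at 2 h to 17.6, 20.96 and 22.1 CPM at 4 h (1.44 ± 0.12, adjusted p = 6.89e-09). The 4 h libraries were separate from the rest. Its first step was -0.40 (adjusted p = 0.0185), and it kept this class in 12 of 18 alternatives. Cdkn3, a phosphatase that acts on cyclin-dependent kinases, went from 20.6, 19.1 and 18.8 CPM to 40.7, 45.1 and 45.98 CPM without overlap (1.17 ± 0.079, adjusted p = 3.7e-10).

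Other first rising genes named by the size of their change had varied roles. Gzma, a granzyme of cytotoxic cells, was at 4.96, 4.16 and 4.33 CPM at 2 h and 8.61, 10.8 and 12.5 CPM at 4 h (1.25 ± 0.13, adjusted p = 2.14e-07). Its libraries did not overlap, and its mean reached 26.2 CPM at 8 h and 75.5 CPM at 24 h. Tnfrsf18, the costimulatory receptor GITR, rose by 0.91 ± 0.12 (adjusted p = 3.06e-06). Nagk, a kinase that salvages N-acetylglucosamine, rose by 1.18, Cnn2, an actin-binding calponin, by 0.93, and Pacsin3, an endocytosis adaptor, by 0.93. For Pacsin3 the second step was not separable from its first step of 0.30 (adjusted p = 0.0564). 4931408C20Rik, a gene whose role is not described here, went from 5.99, 5.10 and 6.57 CPM at 2 h to 14.2, 13.5 and 13.7 CPM at 4 h.

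Of 12 T cell markers, 6 were higher and none lower in the second step, with a median of 0.17, where 14.6% of all genes were higher and 25.1% lower. No T cell marker was lower in any of 18 alternatives, and 6 to 7 were higher. Lck, the kinase that starts T cell receptor signalling, was at 438, 421 and 427 CPM at 2 h and 629, 609 and 690.3 CPM at 4 h, and Cd3d, a receptor subunit, was at 152, 170.1 and 165 and 238, 235 and 272 CPM. The 2 h and 4 h libraries were separate for both (0.58 ± 0.051, adjusted p = 1.42e-08, and 0.61 ± 0.063, adjusted p = 1.33e-07). Thy1, a T cell surface glycoprotein chosen after its values were seen, turned back up, from 1678, 1647 and 1612 CPM at 0 h to 1234, 1218 and 1219 at 2 h and 1638, 1618 and 1571 at 4 h. Among 28 genes of the T cell receptor and its signalling chain, 9 were higher and 5 lower (median 0.094). Homing receptors gave 5 higher and 2 lower of 15 (33.3% and 13.3%), cytokine receptors 6 and 2 of 17 (35.3% and 11.8%), and interferon-stimulated genes 5 and 1 of 18 (27.8% and 5.56%). Il7r, the interleukin-7 receptor, rose by 0.53 ± 0.086 (adjusted p = 4.12e-05). Of 20 lineage transcription factors, 6 were higher and 4 lower. Runx1 rose by 0.52 and kept its first rising class in 10 of 18 alternatives. Id1 and Id3, inhibitors of E proteins, had instead risen by 2 h and fell, at -0.95 and -0.52 in the second step.

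Ribosome assembly made up the most uniform share of the continuing fall. Of 36 genes of the small subunit processome, which assembles the small ribosomal subunit, 33 were lower and none higher in the second step, against 25.1% lower over all genes. Of 41 assembly factors of the 60S subunit, 39 were lower and none higher, and of 21 proteins of small nucleolar RNPs, 19 were lower and 1 was higher. Their medians in the second step were -0.99, -0.96 and -0.69, after -0.55, -0.56 and -0.42 in the first step. The fall continued for 32, 37 and 17 members of these lists, and for 20, 20 and 9 members the second fall was larger than the first by its own test. Summed over the small subunit processome, the 0 h libraries held 5187 to 5246 CPM, the 2 h libraries 3521 to 3622 CPM and the 4 h libraries 1960 to 2008 CPM, and the means at 8 and 24 h were 1644 and 1624 CPM. The 60S factors summed to 6900 to 6942 CPM in the 0 h, 4558 to 4637 CPM in the 2 h and 2428 to 2481 CPM in the 4 h libraries, with means of 1844 and 1742 CPM at 8 and 24 h. Of the members that continued to fall and had a promoter window, CACGTG was found in 9 of 26 for the small subunit and in 7 of 33 for the 60S factors.

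**Figure D2:**
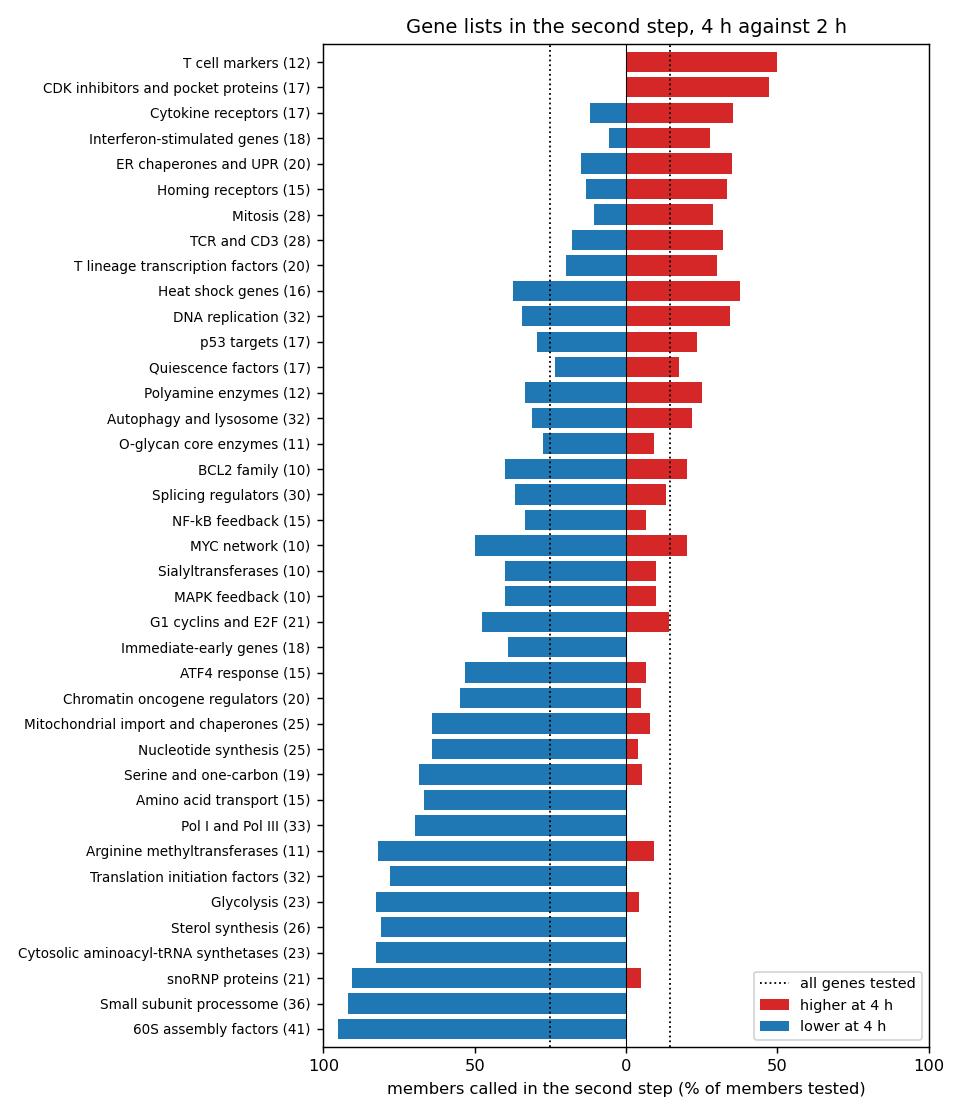
Share of the tested members of each gene list with at least 10 tested genes that were higher (to the right) or lower (to the left) at 4 h than at 2 h, in percent, at an edgeR adjusted p under 0.01. The dotted lines mark the shares over all 13703 genes, 14.6% higher and 25.1% lower.

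Gnl3, the nucleolar GTPase nucleostemin, fell more than any other ribosome assembly gene named. It was at 396, 411 and 416 CPM at 0 h, 169, 201 and 183 CPM at 2 h and 20.9, 24.3 and 23.9 CPM at 4 h, with no overlap between groups. The second step was -3.002 ± 0.070 on the log2 scale (adjusted p = 2.25e-16), larger than the first step of -1.15 (adjusted p of the difference = 4.47e-10), and means of 25.04 and 28.6 CPM followed at 8 and 24 h. Polr1b, the second largest subunit of RNA polymerase I, was at 132, 133 and 131 CPM at 0 h, 51.8, 57.6 and 54.7 CPM at 2 h and 8.18, 6.04 and 6.45 CPM at 4 h. The groups again did not overlap, and the second step was -2.99 ± 0.083 (adjusted p = 1.39e-15). Among the other factors named, Rrp1b and Ppan of the 60S lists moved by -2.28 and -2.19, Nop2, a 28S rRNA methyltransferase, by -2.03, and Nat10, an rRNA acetyltransferase, by -2.10. Wdr43, Rcl1 and Rrp12 of the small subunit list moved by -2.02, -2.13 and -1.93. Dkc1, the pseudouridine synthase dyskerin, moved by -1.56, Nolc1 by -2.08 and Nop58 by -1.30, and all of these passed the test. Ncl and Npm1, the nucleolar proteins nucleolin and nucleophosmin, moved by -0.94 and -0.37 and were named after their values were seen. Bysl, a small subunit factor also chosen that way, was not called, at -0.20 ± 0.061 (adjusted p = 0.0104), with overlapping libraries of 95.4, 91.5 and 87.5 CPM at 2 h and 88.4, 74.3 and 76.1 CPM at 4 h.

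RNA polymerases I and III gave 23 lower and no higher members of 33 (median -0.41), beside 25.1% lower and 14.6% higher over all genes. Polr3e of polymerase III moved by -2.17 ± 0.078 (adjusted p = 4.99e-14) and Polr1a, the largest polymerase I subunit, by -1.74 ± 0.079 (adjusted p = 1.26e-12). Polr3d fell in both steps, at -1.23 and then -1.48, and the difference between steps had an adjusted p of 0.205. The cytosolic aminoacyl-tRNA synthetases, which load tRNAs with amino acids, had 19 lower and no higher of 23 (median -0.54), and 12 of them fell further in the second step than in the first. Iars, the isoleucine enzyme, first fell, from 169, 159 and 153 CPM to 84.8, 80.6 and 71.9 CPM (-1.02 ± 0.062, adjusted p = 7.42e-11), after a first step of -0.094. Translation initiation factors gave 25 lower and no higher of 32 (median -0.37). Eif4ebp1, the repressor 4E-BP1 of cap-dependent translation, fell (-1.45 ± 0.061, adjusted p = 4.24e-13), which counts among the falls of this list although it acts against initiation. Of 11 arginine methyltransferases and cofactors, 9 were lower and 1 was higher (median -0.47), with Prmt3 at -1.32 and Prmt5 at -0.998. Mitochondrial import proteins and chaperones gave 16 lower and 2 higher of 25 (median -0.31), and Timm10, a small import chaperone, fell in both steps (-1.14 and -1.18, adjusted p of the difference = 0.876).

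Many genes that supply building blocks also fell in the second step, though not all of them had fallen in the first. Amino acid transport had 10 lower and no higher of 15 (median -0.61), beside 25.1% lower and 14.6% higher over all genes. The fall continued for 7 members. Slc7a1, which imports arginine and lysine, was at 177, 171 and 165 CPM at 0 h, 108, 115 and 112 CPM at 2 h and 24.5, 20.7 and 20.8 CPM at 4 h. Its groups were all separate, and its second fall of -2.34 ± 0.064 (adjusted p = 1.19e-15) was larger than the first of -0.62 (adjusted p = 4.87e-10). Slc7a5, a leucine importer, and Slc1a5, a glutamine importer, moved by -1.77 and -1.50. Srm, the spermidine synthase, was at 342, 340.5 and 341 CPM at 0 h, 185, 178 and 161 CPM at 2 h and 37.4, 32.7 and 27.5 CPM at 4 h (-2.42 ± 0.080, adjusted p = 1.24e-14), and its means were 2.68 and 4.42 CPM at 8 and 24 h. The 12 polyamine genes were not uniform, with 3 higher and 4 lower. Odc1 and Amd1, which like Srm act in synthesis, fell, at -1.31 and -1.04, whereas Sat1, which breaks polyamines down, first rose (0.44 ± 0.080, adjusted p = 0.000133).

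Nucleotide synthesis gave 16 lower and 1 higher of 25 (median -0.42), and serine and one-carbon metabolism 13 lower and 1 higher of 19 (median -0.39). Over all genes 25.1% were lower and 14.6% higher. The fall continued for 15 and 7 members of these lists, and 1 and 6 members first fell. Shmt1, which passes carbon from serine to folate, went from 244, 239.5 and 238 CPM to 54.3, 50.5 and 49.2 CPM (-2.23 ± 0.051, adjusted p = 2.25e-16). Its libraries did not overlap. Cad and Ppat, which open pyrimidine and purine synthesis, moved by -1.43 and -1.25, and Slc19a1, which imports folates, by -2.70. Dctd, which makes dUMP for thymidylate, fell more in the second step (-2.67 ± 0.083) than in the first (-0.37, adjusted p of the difference = 3.43e-10). Other large falls were those of Car12, a carbonic anhydrase (-3.21), Bcat1, which transaminates branched-chain amino acids (-2.34), Atad3a, a mitochondrial membrane ATPase (-2.32), Rsad1 (-2.55) and Taf4b, a TFIID subunit (-2.28). Taf4b, after a first step of -0.31 (adjusted p = 0.00822), kept this class in 9 of 18 alternatives.

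The sialyltransferases, which cap glycans with sialic acid, moved in different directions. Of 20 genes, 10 were tested. In the second step 1 was higher and 4 were lower (median -0.37), beside 14.6% and 25.1% over all genes. St6galnac4, which adds sialic acid to O-linked glycans, was at 77.8, 77.2 and 71.1 CPM at 0 h, 33.1, 35.3 and 33.4 CPM at 2 h and 4.52, 2.62 and 3.82 CPM at 4 h. No groups overlapped, and its second step of -3.21 ± 0.11 (adjusted p = 2.5e-14) exceeded its first of -1.15 (adjusted p = 3.41e-08). St6galnac6 and St3gal4 continued to fall, at -0.90 and -0.53. St6gal1 turned back down, from 14.7, 17.4 and 16.3 CPM at 0 h through 20.4, 24.4 and 22.4 CPM to 15.9, 17.9 and 15.9 CPM (-0.44 ± 0.085, adjusted p = 0.000262). St8sia4, which builds polysialic acid, continued to rise by 0.32 ± 0.069 (adjusted p = 0.000627), and it lost this call when all 15 libraries were fitted. The values were -0.33 for St3gal1, 0.014 for St3gal2, 0.18 for St3gal3, -0.32 for St6galnac2 and -0.41 for St6galnac3, none of which passed the test.

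In the MYC network 10 of 12 genes were tested, 2 were higher and 5 lower (median -0.33), beside 14.6% and 25.1% over all genes. Max, the shared partner, continued to fall from 106, 112 and 113 CPM to 77.7, 78.04 and 72.6 CPM (-0.54 ± 0.050, adjusted p = 3.4e-08), as did Mnt (-1.09), Mga (-0.78) and Mlxip (-0.79), while Mxi1 first fell (-0.56). Mlx, the partner of Mlxip, turned back up (0.57 ± 0.061, adjusted p = 2.25e-07), and Mxd3 continued to rise (0.43 ± 0.057, adjusted p = 3.51e-06). Both kept their class in 10 of 18 alternatives and their call in all. Mxd1 had risen by 1.10 in the first step and then held 9.19, 9.21 and 8.34 CPM at 4 h beside 10.5, 9.22 and 9.33 CPM at 2 h (adjusted p = 0.332). Mxd4 and Mycbp gave -0.040 and 0.15 and did not pass.

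Few genes rose in both steps, and CDK inhibitors were among them. The 333 genes that continued to rise had medians of 0.38 in the first step and 0.35 in the second. Their number was sensitive to single libraries, at 207, 195 and 190 genes without 2 h replicates 1, 2 and 3, at 512 without 4 h replicate 1, and at 129 with all 15 libraries. Of 17 CDK inhibitors and pocket proteins, which hold cells in G1, 8 were higher and none lower in the second step (median 0.35). The shares over all genes were 14.6% and 25.1%. Of the 8, 5 rose in both steps. Over 18 alternatives 7 to 9 members were higher. Cdkn2d, which encodes p19INK4d, was at 18.7, 18.6 and 20.04 CPM at 0 h, 40.5, 36.6 and 38.9 CPM at 2 h and 62.5, 62.1 and 72.4 CPM at 4 h. The groups were separate at each step (0.76 ± 0.067, adjusted p = 1.58e-08). Cdkn2c, which encodes p18INK4c, rose by 0.49 ± 0.062 (adjusted p = 1.96e-06) after 0.88 in the first step, and Cdkn1b, which encodes p27 and was named after its values were seen, by 0.36 after 0.90. Cdkn1a, which encodes p21, first rose, from 13.4, 15.2 and 14.9 CPM to 22.7, 24.96 and 23.3 CPM (0.71 ± 0.083, adjusted p = 8.48e-07), and Rb1, the retinoblastoma protein gene, rose in both steps (0.26 and 0.43).

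The class also held genes of dividing cells. Tcf19, a gene expressed at the G1 to S transition, was at 40.4, 39.9 and 41.8 CPM at 0 h, 68.5, 60.9 and 66.1 CPM at 2 h and 119.6, 107 and 122 CPM at 4 h (0.83 ± 0.059, adjusted p = 8.07e-10), with no overlap between groups. Rad51c, a recombination protein, rose by 0.44 and then by 0.98, the second rise being the larger (adjusted p = 0.00333). Ska1, a kinetochore protein, rose by 0.83, Adgrb3, an adhesion receptor, by 1.08, Mettl7a1 by 0.88, 1810037I17Rik by 0.83, Ankrd22 by 0.87 and Ccdc69 by 0.78. Ankrd22 and Ccdc69 kept the class in 9 and 11 of 18 alternatives. Of 28 mitosis genes, 8 were higher and 3 lower in the second step, beside 14.6% and 25.1% over all genes. In the first step 18 were higher and none lower, beside 13.1% and 16.3% over all genes. Their median went from 0.35 in the first step to -0.034 in the second, and the latter changed sign in 8 of 18 alternatives. The second step lay below the first by its own test for 13 of the 28 members and above it for 3. Ccnb2, cyclin B2, rose more in the second step, from 228, 214 and 212 CPM to 334, 382 and 395 CPM (0.76 ± 0.057, adjusted p of the difference = 0.000679), and Nusap1, a spindle protein, by 0.55. Mad2l1 and Cenpa, of the spindle checkpoint and the centromere, first rose by 0.57 and 0.49, Cenpa keeping this class in 12 of 18 alternatives. DNA replication was split in the second step, with 11 higher and 11 lower of 32 (34.4% each). Of these, 6 first rose, 5 continued to rise, 5 first fell, 3 continued to fall and 3 turned back down. Pcna, the sliding clamp, continued to rise (0.35) and Rfc4, part of its loader, first rose (0.52). Cdt1 and Cdc6, which act in origin licensing, turned back down (-0.64 and -0.33), and Mcm10, an origin firing gene, first fell (-0.53). These are single members, and counts by function were not made. Pcna and Cdc6 were named after their values were seen.

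**Figure D3:**
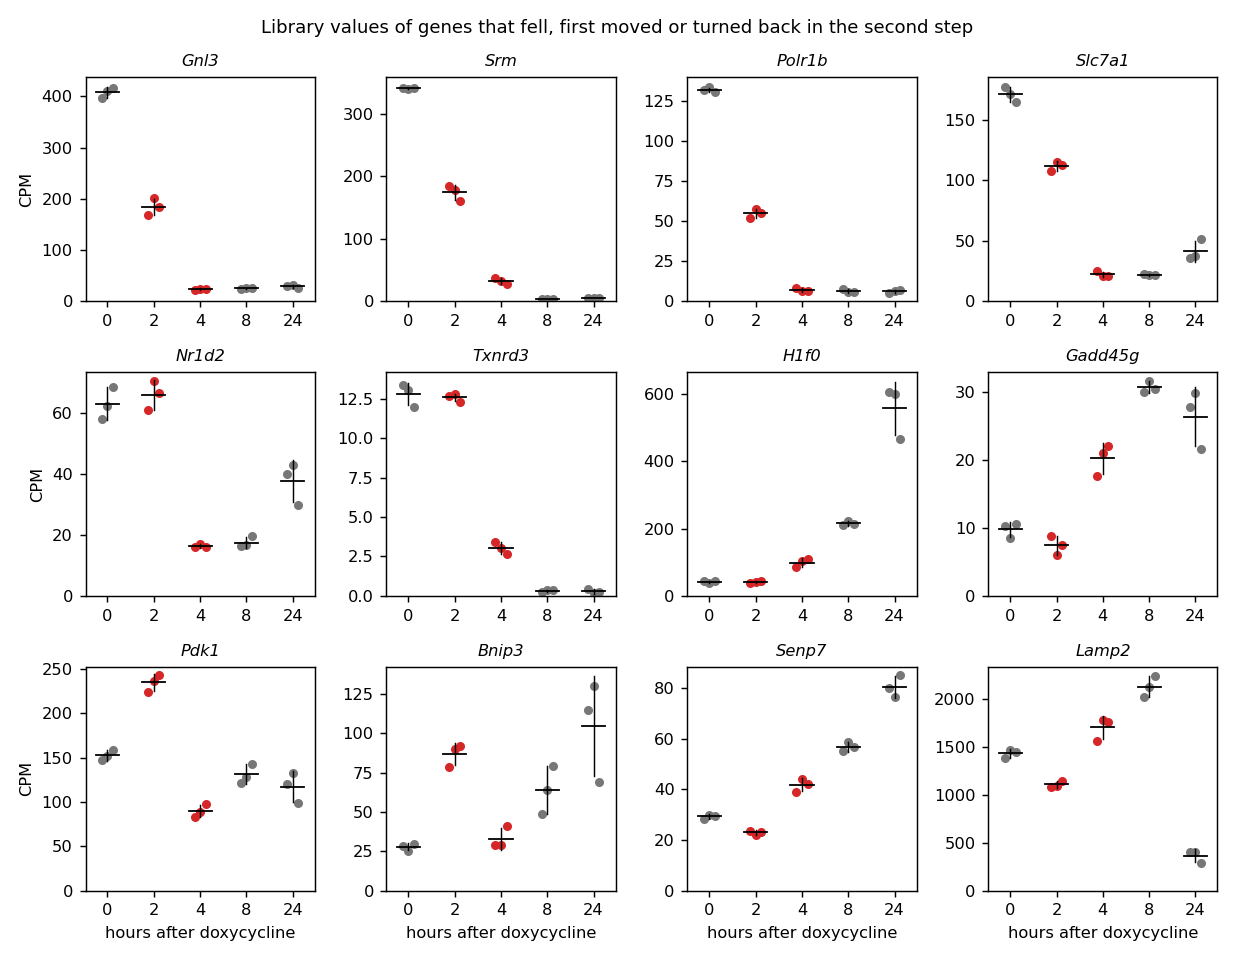
CPM in each library (points, red at 2 h and 4 h), with group means (horizontal bars) and SD (vertical lines), at 0, 2, 4, 8 and 24 h for genes that continued to fall (Gnl3, Srm, Polr1b, Slc7a1), moved first in the second step (Nr1d2, Txnrd3, H1f0, Gadd45g) or turned back (Pdk1, Bnip3, Senp7, Lamp2). Among 0, 2 and 4 h, Pdk1 and Bnip3 are highest and Senp7 and Lamp2 are lowest at 2 h.

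Glycolysis turned back. Of 23 genes, 11 were higher and 4 lower in the first step, against 13.1% and 16.3% over all genes. In the second step 1 was higher and 19 were lower, against 14.6% and 25.1% over all genes. The median moved from 0.23 to -0.61, the second step lay below the first by its own test for 16 members, and 11 members, 7 to 13 over 18 alternatives, had both a called rise and a called fall. Summed over the list, the 0 h libraries held 15330 to 15470 CPM, the 2 h libraries 18720 to 19360 CPM and the 4 h libraries 12570 to 13260 CPM, and means of 9030 and 8076 CPM followed at 8 and 24 h. The 4 h sums thus lay below those at 0 h, not back at them. Pdk1, the kinase that keeps pyruvate out of mitochondria, was at 147, 151 and 159 CPM at 0 h, 224, 237 and 243 CPM at 2 h and 83.6, 88.4 and 97.5 CPM at 4 h. The 2 h libraries were above, and the 4 h libraries below, all 3 libraries at 0 h. The second step was -1.39 ± 0.058 (adjusted p = 3.27e-13) after a first step of 0.62 (adjusted p of the difference = 9.73e-11). Pfkl, a phosphofructokinase subunit, went from 67.4, 64.3 and 63.1 CPM at 0 h through 101, 89.7 and 93.4 CPM to 38.1, 32.3 and 36.5 CPM (-1.41 ± 0.065, adjusted p = 1.38e-12), also ending below 0 h.

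Other enzymes and a transporter of the list were named after their values were seen. Aldoa was at 1604, 1538 and 1527 CPM at 0 h, 2435, 2409 and 2480 CPM at 2 h and 1524, 1398 and 1480 CPM at 4 h, and its 4 h level had an adjusted p of 0.153 against 0 h. Its second step was -0.73 ± 0.051 (adjusted p = 5.48e-10). Tpi1, Ldha and Pkm, the triose phosphate isomerase, lactate dehydrogenase A and pyruvate kinase genes, moved by -0.92, -0.61 and -0.60 and ended below 0 h, with adjusted p against 0 h of 9.1e-07, 4.18e-06 and 0.000953. Pgk1 moved by -0.27 ± 0.058 (adjusted p = 0.000819) and lost the call in 3 of 18 alternatives. Slc16a3, a lactate exporter, was at 38.4, 43.8 and 44.5 CPM at 2 h and 17.8, 16.9 and 30.6 CPM at 4 h, where replicate 3 was the highest (-0.96 ± 0.14, adjusted p = 1.69e-05). Hk2, a hexokinase, and Pfkfb3, which makes an activator of phosphofructokinase, fell in both steps instead, at -2.10 then -1.75 and at -1.55 then -1.39. The member that rose, Ldhb for lactate dehydrogenase B, was likewise named after its values were seen (0.27 ± 0.060, adjusted p = 0.000792). All 11 members turning back had a promoter window, and ACGTG outside CACGTG lay in 7 of them (Hk1, Pfkm, Aldoa, Pgk1, Pkm, Ldha and Slc16a3). It lay in 20.9% of all promoters and in 27.1% of those of the whole class. CACGTG itself lay in 2 of the 11, Pfkm and Ldha.

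Sterol and fatty acid synthesis turned back as well. Of 26 genes, 18 were higher and 2 lower in the first step, against 13.1% and 16.3% over all genes. In the second step none was higher and 21 were lower, against 14.6% and 25.1% over all genes. The medians of the 2 steps were 0.58 and -0.38. Both a rise and a fall were called for 14 members, 9 to 15 over the alternatives. Of the 14, 10 had a promoter window, with ACGTG outside CACGTG in 1 and CACGTG in 2, unlike the glycolysis members. The summed level was 2310 to 2450 CPM in the 0 h libraries, 3107 to 3131 CPM in the 2 h libraries and 2086 to 2354 CPM in the 4 h libraries, so that the 4 h and 0 h sums overlapped. Scd1, the stearoyl-CoA desaturase, was at 1.43, 1.65 and 1.18 CPM at 0 h, 3.85, 4.57 and 4.29 CPM at 2 h and 1.94, 2.18 and 1.67 CPM at 4 h (-1.13 ± 0.16, adjusted p = 7.9e-06). Its 4 h libraries lay between the other groups. Lss, lanosterol synthase, moved by -0.83 ± 0.063 (adjusted p = 2.11e-09). Hmgcs1, an early enzyme of the pathway, moved by 1.17 then -0.34 and stayed above 0 h at 4 h (adjusted p = 6.33e-11). Srebf1 and Srebf2, the transcription factors of the pathway, moved by -0.34 and -0.70, and with Hmgcs1 were named after their values were seen. Fasn, the fatty acid synthase, fell in both steps (-0.9952 and -1.11).

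**Figure D4:**
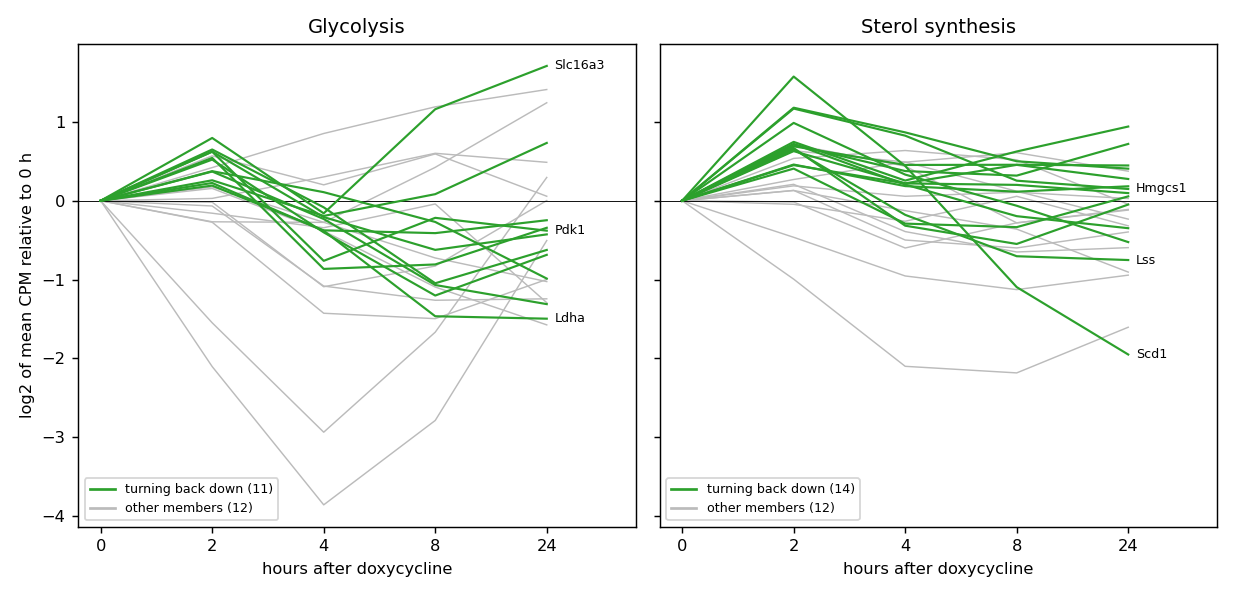
Mean CPM relative to 0 h (log2, vertical axis) at 0, 2, 4, 8 and 24 h for the 23 glycolysis genes and the 26 sterol synthesis genes. Coloured lines are the 11 and 14 members that turned back down, and grey lines are the other members, of which Hk2 and Fasn fell in both steps.

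The whole class that turned back down held 377 genes, with medians of 0.41 and -0.35. At 4 h, 243 of them had no called difference from 0 h, 88 were above it and 46 below. The count was 222 without 0 h replicate 2, 248 without 2 h replicate 2 and 94 with all 15 libraries. Bnip3, a mitophagy receptor, was at 28.5, 25.5 and 29.9 CPM at 0 h, 78.9, 90 and 92.2 CPM at 2 h and 29.2, 29.1 and 41.3 CPM at 4 h. The 2 h libraries stood apart from both other groups, 4 h replicate 3 was the highest of its group, and the second step was -1.39 ± 0.10 (adjusted p = 1.11e-09). Its means then were 64.2 CPM at 8 h and 105 CPM at 24 h. Gpr155, a lysosomal membrane protein that senses cholesterol, went from 3.73, 4.67 and 4.20 CPM at 0 h through 10.6, 11.7 and 12.1 CPM at 2 h to 2.58, 2.98 and 3.08 CPM at 4 h (-1.99 ± 0.12, adjusted p = 5.41e-11). All 4 h libraries were below all 0 h libraries. Fam162a, a mitochondrial protein, moved by -1.14, Pgm1, a phosphoglucomutase, by -1.10, Podxl2 by -1.31 and Zmat3, an RNA-binding target of p53, by -1.17. Med1, the Mediator subunit, also turned back (-0.46 ± 0.054, adjusted p = 9.35e-07), as did Nr4a1, an immediate-early nuclear receptor of T cells (-0.79 ± 0.12, adjusted p = 1.75e-05), which kept this class in 11 of 18 alternatives. Immediate-early genes had 7 lower and none higher of 18 in the second step, beside 25.1% lower and 14.6% higher over all genes.

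Genes that turned back up were the smallest class, with 174 members and medians of -0.34 and 0.38. At 4 h, 124 had no called difference from 0 h, 30 were above it and 20 below. The count was 99 and 106 without 2 h replicates 2 and 3 and 73 with all 15 libraries. Senp7, a SUMO protease, was at 28.4, 30.1 and 29.6 CPM at 0 h, 23.7, 22.1 and 23.2 CPM at 2 h and 39.04, 44.3 and 42.2 CPM at 4 h. The 2 h libraries lay below, and the 4 h libraries above, those at 0 h. The second step was 0.86 ± 0.066 (adjusted p = 2.03e-09) after -0.35 in the first. Lamp2, a major lysosomal membrane protein, was at 1382, 1469 and 1449 CPM at 0 h, 1087, 1096 and 1146 CPM at 2 h and 1565, 1783 and 1766 CPM at 4 h (0.62 ± 0.056, adjusted p = 2.52e-08), and its means at 8 and 24 h were 2130 and 366 CPM. Banp, a nuclear DNA-binding protein, had the largest first fall of the genes of this class named in this paragraph. It went from 31.6, 36.8 and 32.8 CPM to 17.97, 12.96 and 13.8 CPM, and at 26.1, 26.1 and 24.3 CPM at 4 h it stayed below 0 h (adjusted p = 0.000811). Tmem151b, Mtus2, a microtubule-associated protein, Scrn1, Tubd1, delta tubulin, and Polb, DNA polymerase beta, rose by 1.002, 0.89, 0.9988, 0.96 and 0.73. Egfem1 rose by 0.80, but kept the class in 5 of 18 alternatives.

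Chaperones were divided. Of 16 heat shock genes, 6 were higher and 6 lower in the second step, and their median of -0.018 changed sign in 9 of 18 alternatives. Dnaja1, an HSP70 cochaperone, turned back up from 155, 145 and 147 CPM to 205, 211 and 216 CPM (0.50 ± 0.047, adjusted p = 4.02e-08), and so did Hspa8 and Chordc1 (0.38 and 0.46), named after their values were seen. Hsf1, the heat shock transcription factor, continued to fall (-0.57 ± 0.070, adjusted p = 1.31e-06). Among 20 endoplasmic reticulum chaperones and sensors, 7 were higher and 3 lower, with Calr, calreticulin, first rising (0.54 ± 0.047, adjusted p = 1.36e-08) and Hyou1 continuing to fall (-0.48 ± 0.049, adjusted p = 9.8e-08). Of 32 autophagy and lysosome genes, 7 were higher (21.9%) and 10 lower (31.2%), near the 14.6% and 25.1% over all genes, with a median whose sign depended on the fit (-0.037, changed in 11 of 18 alternatives), and Gaa and Neu1, lysosomal hydrolases, fell, at -0.87 and -0.58. Of 17 p53 targets, 4 were higher (23.5%) and 5 lower (29.4%), likewise near those shares, with a median of -0.019 that changed sign in 9 of 18 alternatives. Aen, a nuclease induced by p53, continued to fall (-2.07 ± 0.080, adjusted p = 1.29e-13), as did Bbc3, the death activator PUMA (-1.19 ± 0.11, adjusted p = 3.18e-08), opposite to Cdkn1a of the same list.

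The genes of the respiratory chain, a group formed by name after the values were seen, contributed many small rises to the first rising class. Of 96 nuclear genes of complexes I, III and IV and ATP synthase, 54 were higher and 4 lower in the second step, beside 14.6% higher and 25.1% lower over all genes, 53 of them first rising, with medians of -0.037 in the first step and 0.24 in the second, the latter above 0 in all 18 alternatives. Their summed level was 15650, 16150 and 15960 CPM at 2 h and 17700, 17430 and 19130 CPM at 4 h, where replicate 3 was the highest. The groups did not overlap, and means of 16240 and 10970 CPM followed at 8 and 24 h. Without 4 h replicate 3, 43 were higher and 3 lower (median 0.18), and with all 15 libraries, where the spread is estimated from later times too, 3 were higher and 3 lower (median 0.28). The 25 genes of the mitochondrial genome encode further subunits of these complexes besides rRNAs and tRNAs. None was higher and 6 were lower, a share near the 25.1% lower over all genes, and 0 to 13 were lower over 18 alternatives. Their medians were 0.36 in the first step and -0.31 in the second. The sums were 18550, 26780 and 22720 CPM at 2 h and 16900, 21440 and 14610 CPM at 4 h, which overlapped. The 2 h sums also overlapped the 16910 to 19010 CPM at 0 h. The 97 cytosolic ribosomal protein genes showed 35 higher and 5 lower (median 0.18), with 114800, 114800 and 132700 CPM in sum at 4 h against 104800 to 109100 CPM at 2 h and 104400 to 111200 CPM at 0 h. Their count of higher genes ran from 2 to 58 over 18 alternatives, and their median from 0.11 to 0.29. The median exon length was 1781 bases for the ribosomal protein genes and 1438 bases for complex I, against 3607 bases over all genes tested. Among the 3426 genes with the shortest exons 15.6% were higher and 12.3% lower (median 0.094), and among the genes with the longest exons, a set of like size, 12.2% were higher and 34.5% lower (median -0.11). The part of transcript length in these family values was not tested.

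**Figure D5:**
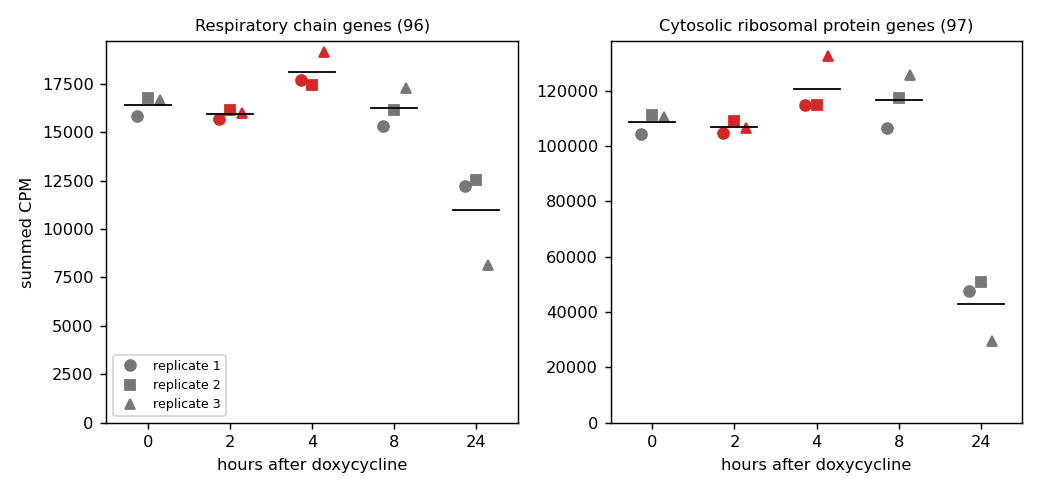
Summed CPM of the 96 respiratory chain genes and the 97 cytosolic ribosomal protein genes in each library at 0, 2, 4, 8 and 24 h, with red symbols for the 2 h and 4 h libraries and bars for group means. The 4 h libraries lie above the 2 h libraries for both families, and 4 h replicate 3 is the highest of its group.

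The sources used here do not say whether reads were counted by strand. Values of genes that overlap another annotated gene on the opposite strand, such as Gnl3 with Pbrm1, Slc19a1 with Col18a1, Tmem151b with Tcte1 and Aldoa with Fam57b, may therefore hold reads of that gene. Aldoa is also listed under a second gene identifier, at which it was in neither step called, and the values above are those of ENSMUSG00000030695.16. Npm1, Ldha, Pgk1, Hspa8 and the ribosomal protein genes have near-identical copies in the mouse genome, and the handling of shared reads is not stated.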

How the data were processed

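Polyadenylated RNA of 15 T-ALL libraries had been sequenced by the authors. The authors deposited raw counts per gene for each library, and the counts column alone was used here. Tools listed in the processing notes of the submitters are featureCounts, STAR 2.5.4b and cutadapt 1.16, with build mm10. Neither the annotation release nor the strand setting was given in those notes. The files list 53380 features, of which 53274 of 53379 mouse identifiers matched GENCODE M21, used here for type, position and length. Other columns of the files were not used.

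Libraries at 0, 2 and 4 h were fitted together with edgeR 4.0.16 in R 4.3.3 (filterByExpr, TMM factors, quasi-likelihood test), and p-values were adjusted over all 13703 genes by Benjamini-Hochberg at 0.01. A gene first moved when only its second step was called, continued when both steps were called in the same direction, and turned back when they were called in opposite directions. CPM use the TMM factors. Depth was 26441868 to 27102318 counts, and floors of 3 counts cover counting error only. On simulated data with 13474 genes tested, 54 of 67 genes changed 1.5-fold, 65 of 67 changed 2-fold and 66 of 66 changed 4-fold were called, and 7 of 13503 unchanged genes.

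Alternatives were other scalings, other filters, DESeq2 1.42.0, all 15 libraries, the 2 time points alone, a replicate block, other thresholds and leaving out each library. Genes were named by a rule, unless said otherwise: the 15 largest rises and falls and the 8 largest per class among protein-coding genes with at least 10 CPM and separate libraries, up to 4 called members per list, the MYC network and sialyltransferases, and a few genes are not reported here. The members and the 48 lists were chosen with earlier results of these data known. Promoter sequences came from RefSeq (GRCm38.p6).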

Additional observations from a re-analysis of the deposited data

How the results depend on the processing

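Over 20 alternatives the number of genes stayed within 1.5-fold of the main count in 17 for genes higher, 18 for genes lower, 17 for first rising, 17 for first falling, 10 for continuing to rise, 18 for continuing to fall, 14 for turning back up and 15 for turning back down. No called direction reversed among the genes named, whereas upper-quartile factors turned the balance of calls, and several list medians near 0 changed sign. At an adjusted p under 0.05 the classes continuing to rise, turning back up and turning back down held 636, 320 and 669 genes. With a log2 fold change over 1 as well, 88 genes were higher and 521 lower, and the classes held 79 first rising, 178 first falling, 3 continuing to rise, 315 continuing to fall, 6 turning back up and 28 turning back down. Scaling by library totals gave 530 genes continuing to rise. Upper-quartile factors gave 3179 higher and 2484 lower, 2290 first rising and 689 continuing to rise. With all 15 libraries, 1118 were higher and 1882 lower, with 916 first rising (774 of them in the main class), 1054 first falling, 129 continuing to rise, 734 continuing to fall, 73 turning back up and 94 turning back down. With only the 2 time points compared in each fit, 910 were first falling, 509 continuing to rise and 266 turning back up.

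Leaving out each library in turn gave 1513 to 2365 higher and 2839 to 3701 lower genes, 1219 to 1896 first rising, 1325 to 1813 first falling, 190 to 512 continuing to rise, 1122 to 1600 continuing to fall, 99 to 226 turning back up and 222 to 487 turning back down. The cause of these shifts was not tested. The fit with a replicate block gave 2293 higher and 3726 lower genes, with 1608 first rising, 1638 first falling, 456 continuing to rise, 1608 continuing to fall, 229 turning back up and 480 turning back down. Correlations between deviations of libraries with the same replicate number ran from 0.00778 to 0.298. Those between libraries with different numbers ran from -0.323 to 0.159, the highest between 2 h replicate 3 and 4 h replicate 2. The 2 ranges overlap, and whether the numbers pair the libraries cannot be told from these values. Among the genes named, calls changed in some of 18 alternatives for Bysl (3), Pgk1 (3), Srebf1 (2), St8sia4, Hspa8, Ldhb, Mlxip, Npm1, Pcna and Sat1 (1 each, with all 15 libraries), St3gal1 (2), Mycbp (1) and mt-Co1 (3), the last of which was among the genes taking over 1% of the counts of a library. Depth limits genes under about 0.111 CPM, where 3 counts or fewer were seen.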

Other observations

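Other name-based families, also formed after the values were seen, moved in the second step without being part of the comparisons above. Over all genes tested, 14.6% were higher and 25.1% lower in that step. Of 20 nucleoporin genes, which form the nuclear pore, 14 were lower and 1 was higher, with a median log2 fold change of -0.32, and 7 to 14 were lower over 18 alternatives. Of 13 genes that host small nucleolar RNAs, 6 were lower and 1 was higher, with a median of -0.44. Of 16 subunit genes of the vacuolar ATPase, which acidifies lysosomes, 7 were higher and none lower, with a median of 0.21 and 3 to 12 higher over the alternatives. Of 48 proteasome subunit genes, 20 were higher and 8 lower, with a median of 0.14 and 5 to 31 higher over the alternatives. The 79 mitochondrial ribosomal protein genes had 19 higher and 19 lower.

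The classes differed in the length of their genes. The median exon length was 2919 bases for first rising and 4827 bases for first falling genes, beside 3607 bases over all genes tested, and the median span was 13.9 and 28 kb, beside 17.2 kb. Genes that turned back down had 5332 bases and 27.1 kb. With the genes ranked by exon length and cut into 4 sets, the median second step went from 0.094 in the shortest set through -0.019 and -0.085 to -0.11 in the longest, and for each 4 h library taken alone the shortest set lay above the longest, at 0.012 and -0.071 for replicate 1, 0.048 and -0.096 for replicate 2 and 0.057 and -0.13 for replicate 3. Whether length, base content or RNA quality has a part in the classes was not tested.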
